A study of Mus musculus with 11 samples.

Results

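Immunoglobulin variable segments are the gene pieces that code for most of the antigen-binding part of antibodies. The 196 segments described here are the rows of a thymic epithelial RNA-seq table whose Ensembl identifiers map to mouse symbols starting with Ighv, Igkv or Iglv and whose counts, added over 11 libraries, reached 10 or more. They were taken from 348 such rows, of 56691 rows in all, and comprise 103 of 185 heavy chain (Ighv), 90 of 160 kappa chain (Igkv) and 3 of 3 lambda chain (Iglv) rows. The rule used the measured counts, so a segment abundant in a single library passes, and the number of segments is itself a description. Of the other rows, 131 were at 0 in every library and 21 had 1 to 9 counts. Just outside it were Ighv1-43 and Ighv8-10 with 9 counts, Ighv1-21-1 with 8 and Igkv8-26 with 6. Just inside were Igkv8-27, Ighv8-13, Ighv5-15 and Ighv11-1 with 10 each. The 196 members held 99.99% of all variable segment counts, and 30 of them, 17 heavy and 13 kappa, are annotated as pseudogenes and held 1.11% of the counts.

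The cells came from thymi of NOD mice, a strain prone to autoimmune diabetes, aged 4 to 8 weeks and carrying R249C, a missense variant of Aire, on both alleles (R249C/R249C, 3 libraries), on a single allele (WT/R249C, 5 libraries) or on neither (WT/WT, 3 libraries). Per the labels, the thymus was digested, CD45-expressing cells, meaning leukocytes, were removed on magnetic beads, cells were then sorted on EpCAM, an epithelial surface protein, and RNA went into low-input libraries. All 3 R249C/R249C libraries, WT/R249C replicates 1 to 3 and WT/WT replicate 1 are labelled batch A, and WT/R249C replicates 4 and 5 and WT/WT replicates 2 and 3 batch B. The labels of WT/R249C replicates 4 and 5 contradict each other, with WT/R249C in the title and R249C/R249C in the genotype field. They are grouped here by title, and every WT/R249C value within batch B rests on them. The labels name no tissue-specific driver for the variant. The sources used here do not say how many mice a library pools, so the spread between libraries is the only error available.

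An antibody gene is built in a developing B cell, which joins a variable segment to joining segments (and, in the heavy chain, a diversity segment) and places them upstream of a constant gene. Each B cell keeps a single heavy chain and a single light chain, kappa or lambda, and passes them to its daughters, so a segment marks a clone or a set of clones. Plasma cells, the end stage, transcribe their rearranged genes at very high levels. The thymus is known to hold B cells and some plasma cells beside its epithelium, and both sit in a CD45-expressing lineage. Aire lets medullary thymic epithelial cells transcribe many tissue-restricted genes.

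Many of these segments are near copies of each other, which bears on every value below. Compared over the variable exon of the reference transcripts, the closest other member was at a median identity of 94.8%, with 94 of 196 at or over 95% and 16 at or over 98%. Reads from near copies can be split or moved between them by the authors' counting, so the naming of single segments is uncertain within such pairs. The reference is from C57BL/6J and the mice are NOD. The sequences shown next are reference exons from GENCODE M21 on GRCm38, an older build than the mm39 used for the counts, all 5′ to 3′ on the coding strand. The Igkv5 pair is shown because it held 96.01% of the kappa counts of R249C/R249C replicate 1 and 55.9% of those of WT/R249C replicate 2. It differs at 3 of 298 bases, in capitals:
Igkv5-43 (GRCm38, chr6:69823355-69823652, minus strand): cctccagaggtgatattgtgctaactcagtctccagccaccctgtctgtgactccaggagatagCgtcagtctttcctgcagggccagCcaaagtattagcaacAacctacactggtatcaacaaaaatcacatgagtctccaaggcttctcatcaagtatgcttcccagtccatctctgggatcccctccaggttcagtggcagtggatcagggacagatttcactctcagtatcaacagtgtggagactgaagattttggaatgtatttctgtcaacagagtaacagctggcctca
Igkv5-45 (GRCm38, chr6:69775750-69776047, minus strand): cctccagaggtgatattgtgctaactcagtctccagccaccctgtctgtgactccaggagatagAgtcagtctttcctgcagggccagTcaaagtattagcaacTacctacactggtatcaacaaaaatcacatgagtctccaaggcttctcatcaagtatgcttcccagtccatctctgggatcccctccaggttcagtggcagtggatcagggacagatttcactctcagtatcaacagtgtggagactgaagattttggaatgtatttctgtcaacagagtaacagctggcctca
The Igkv6 pair is shown because it was among the kappa segments most different between genotypes. It differs at 5 of 298 bases, in capitals:
Igkv6-20 (GRCm38, chr6:70335841-70336138, minus strand): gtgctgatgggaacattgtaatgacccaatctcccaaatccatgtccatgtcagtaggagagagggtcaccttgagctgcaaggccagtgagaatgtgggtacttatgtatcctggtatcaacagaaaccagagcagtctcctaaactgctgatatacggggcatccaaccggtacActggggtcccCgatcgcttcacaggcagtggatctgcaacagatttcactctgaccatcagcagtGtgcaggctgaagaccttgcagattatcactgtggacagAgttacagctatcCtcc
Igkv6-29 (GRCm38, chr6:70138462-70138759, minus strand): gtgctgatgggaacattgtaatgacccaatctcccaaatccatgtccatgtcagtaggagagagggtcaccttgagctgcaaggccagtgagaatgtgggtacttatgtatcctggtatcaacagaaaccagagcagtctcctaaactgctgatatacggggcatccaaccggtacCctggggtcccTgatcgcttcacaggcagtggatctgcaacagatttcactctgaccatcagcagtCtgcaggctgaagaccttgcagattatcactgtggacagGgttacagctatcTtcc
The lambda pair is shown because Iglv1 was the most abundant segment of the series. It differs at 9 of 305 bases, of which the last 300, with 8 of the differences in capitals, are printed:
Iglv1 (GRCm38, chr16:19085017-19085316, minus strand): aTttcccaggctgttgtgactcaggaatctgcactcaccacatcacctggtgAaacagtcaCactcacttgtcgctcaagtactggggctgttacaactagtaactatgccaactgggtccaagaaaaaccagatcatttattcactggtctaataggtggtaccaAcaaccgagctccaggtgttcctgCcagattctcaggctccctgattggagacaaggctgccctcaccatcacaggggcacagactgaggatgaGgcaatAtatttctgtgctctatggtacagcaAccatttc
Iglv2 (GRCm38, chr16:19260401-19260700, minus strand): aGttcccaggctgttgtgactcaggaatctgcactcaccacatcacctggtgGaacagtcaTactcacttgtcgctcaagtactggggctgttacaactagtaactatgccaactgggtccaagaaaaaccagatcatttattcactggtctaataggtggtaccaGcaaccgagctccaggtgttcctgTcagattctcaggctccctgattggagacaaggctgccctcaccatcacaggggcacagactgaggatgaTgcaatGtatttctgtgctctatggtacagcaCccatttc
The last pair gives the most abundant heavy segments of a R249C/R249C and of a WT/R249C library. The capitals mark TGTGCAAGA, which lies at the end of many heavy segments, where the joining takes place. Searched on the coding strand in the last 40 bases of the exon, it was present in 50 of 86 heavy genes (58.1%) and in 0 of 80 light chain genes. The last 300 bases are printed:
Ighv7-1 (GRCm38, chr12:113896408-113896707, minus strand): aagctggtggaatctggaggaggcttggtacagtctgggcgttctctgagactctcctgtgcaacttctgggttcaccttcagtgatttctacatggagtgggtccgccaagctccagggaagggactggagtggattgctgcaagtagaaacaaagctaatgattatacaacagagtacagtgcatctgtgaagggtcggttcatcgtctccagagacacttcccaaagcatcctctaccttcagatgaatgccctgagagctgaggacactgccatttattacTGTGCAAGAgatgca
Ighv1-78 (GRCm38, chr12:115868773-115869072, minus strand): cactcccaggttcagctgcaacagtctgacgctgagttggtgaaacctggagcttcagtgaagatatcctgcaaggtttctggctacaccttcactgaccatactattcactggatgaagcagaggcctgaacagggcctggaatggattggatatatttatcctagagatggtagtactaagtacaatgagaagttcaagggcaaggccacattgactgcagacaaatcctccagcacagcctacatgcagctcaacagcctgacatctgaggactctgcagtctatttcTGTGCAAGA

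Variable segment transcripts were present in all 11 libraries and were most abundant in WT/WT. Their summed level, in CPM (counts scaled to the library total), was 103, 368 and 231 in R249C/R249C, 9.09, 42.2, 156, 12.7 and 12.3 in WT/R249C, and 899, 1305 and 2138 in WT/WT. Every mutant library was below every WT/WT library, while the R249C/R249C and WT/R249C ranges overlapped. The means were 234 ± 133 in R249C/R249C (SD, n = 3), 46.4 ± 62.6 in WT/R249C (n = 5) and 1447 ± 632 in WT/WT (n = 3). WT/WT was thus 6.18-fold above R249C/R249C and 31.2-fold above WT/R249C. Within batch A, with its single WT/WT library, it was 3.84-fold and 13.0-fold above them, and within batch B it was 138-fold above WT/R249C. The WT/R249C mean leaned on replicate 3 and was 19.1 CPM without it. No p is given for these sums, since the members were chosen with results of these data known. In bulk RNA, fewer cells of a type and less RNA per cell cannot be told apart.

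**Figure D1:**
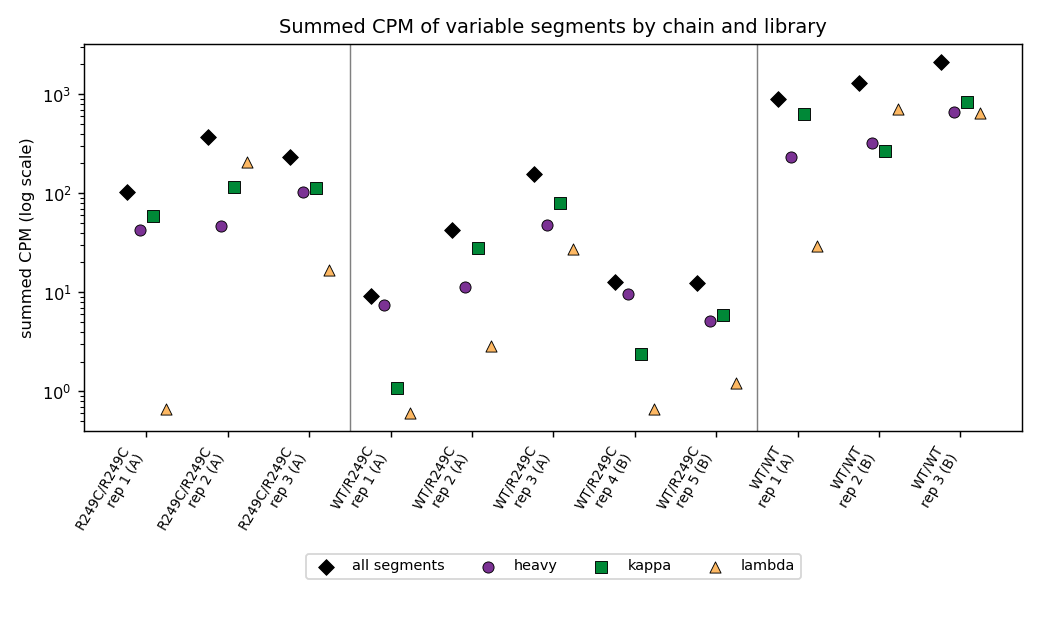
Summed CPM (log scale) of all variable segments and of the heavy, kappa and lambda segments, 1 column of points per library, with the batch in brackets. The black diamonds of the 3 WT/WT libraries lie between 899 and 2138 CPM, above all 8 mutant libraries, whose highest is 368.

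The heavy and kappa chains each showed the same order of genotypes. Heavy segments summed to 42.9, 46.3 and 102 CPM in R249C/R249C, to 7.39, 11.3, 48.3, 9.63 and 5.11 in WT/R249C, and to 232, 324 and 662 in WT/WT. Kappa segments summed to 59.4, 116 and 113 CPM in R249C/R249C, to 1.09, 28.0, 79.9, 2.38 and 5.93 in WT/R249C, and to 268 to 836 in WT/WT. For both chains the WT/WT range lay above all mutant libraries. Lambda segments were different, at 0.667, 206 and 16.6 CPM in R249C/R249C, 0.605, 2.89, 27.5, 0.665 and 1.23 across WT/R249C, and 29.1, 713 and 640 in WT/WT. Here R249C/R249C replicate 2 stood above WT/WT replicate 1, so the lambda ranges of these genotypes overlapped. The lambda share of light chain counts ran from 1.11% to 64.0% in R249C/R249C, from 9.37% to 35.7% in WT/R249C and from 4.37% to 72.6% in WT/WT, so libraries of a single genotype spanned most of the range.

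More different segments were seen in WT/WT. With at least 1 count, 32, 36 and 60 segments were seen in R249C/R249C, 49, 52, 38, 46 and 22 in WT/R249C, and 129, 78 and 158 in WT/WT. The mean was 42.7 ± 15.1 in R249C/R249C (SD, n = 3), 41.4 ± 12.03 in WT/R249C (n = 5) and 121.7 ± 40.5 in WT/WT (n = 3). Every WT/WT library had more segments than any mutant library, and the mutant genotypes overlapped. Within batch A the numbers were 32 to 60 in R249C/R249C and 38 to 52 in WT/R249C, against 129 in the single WT/WT library, and within batch B 22 and 46 in WT/R249C, against 78 and 158 in WT/WT.

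A library with more variable segment counts shows more segments, and these totals ran from 1020 to 389710 counts. When each library was thinned to 1020 variable segment counts, a setting chosen after seeing the data, the expected number was 24.7, 16.9 and 40.3 in R249C/R249C, 47.9, 34.6, 26.0, 45.1 and 22 in WT/R249C, and 78.0, 39.1 and 76.5 in WT/WT. At equal counts the ranges overlapped: WT/WT replicate 2 was below R249C/R249C replicate 3 and below WT/R249C replicates 1 and 4, and the other WT/WT libraries remained above all mutant libraries.

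Over all chains together, the ranges of the share of the most abundant segment overlapped between genotypes. It was 37.9%, 54.7% and 17.9% in R249C/R249C, 17.3%, 28.1%, 20.6%, 10.7% and 26.6% in WT/R249C, and 11.7%, 53.0% and 29.0% in WT/WT. The mean was 36.8 ± 18.5% in R249C/R249C (SD, n = 3), 20.7 ± 7.09% in WT/R249C (n = 5) and 31.2 ± 20.8% in WT/WT (n = 3), and all 3 ranges overlapped. The batches differed in order: in batch A all 6 mutant libraries were above the single WT/WT library, at 11.7%, and in batch B both WT/R249C libraries, at 10.7% and 26.6%, were below both WT/WT libraries, at 53.0% and 29.0%. Within a chain the order of the genotypes was not the same. The top heavy segment held 90.9%, 49.4% and 34.3% of the heavy counts in R249C/R249C, 14.1% to 72.3% in WT/R249C, and 20.8%, 22.9% and 18.4% in WT/WT. The top kappa segment held 55.8%, 92.8% and 36.6% of the kappa counts in R249C/R249C, 19.2% to 54.97% in WT/R249C, and 16.4%, 20.9% and 17.3% in WT/WT. In both chains every R249C/R249C library was above every WT/WT library, while WT/R249C overlapped WT/WT. Within batch A the single WT/WT library was likewise below all 3 R249C/R249C libraries in both chains. For the share over all chains, counting error is small beside the spread: the exact 95% binomial interval was 54.2% to 55.2% for R249C/R249C replicate 2 and, in the library of fewest variable segment counts, 23.9% to 29.4% for WT/R249C replicate 5. Reads carry no molecular identifiers, so such intervals cover counting error only.

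**Figure D2:**
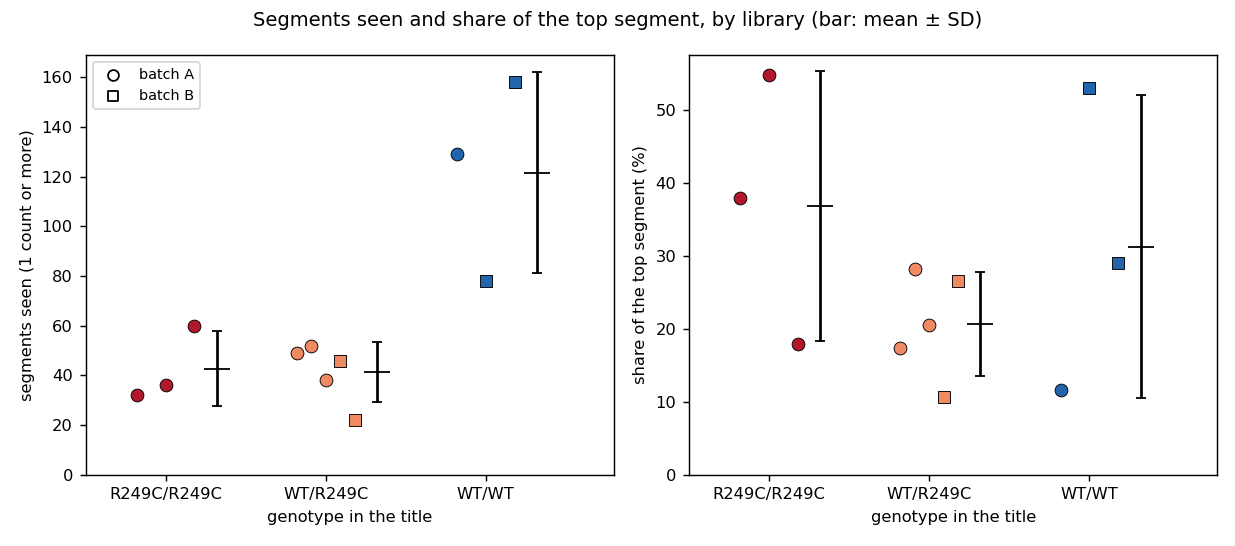
Number of variable segments with at least 1 count (left) and share of the most abundant segment in percent (right), 1 point per library, circles for batch A and squares for batch B, with the mean and SD of each genotype beside the points. The WT/WT libraries, at 78 to 158 segments, lie above all mutant libraries on the left, while the 3 genotypes overlap on the right.

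The segment that led a library was mostly its own: 9 different segments led the 11 libraries, as did 9 different heavy and 9 different kappa segments within their chains. Dividing counts by transcript length left the leader of every library the same. In R249C/R249C replicate 1 Ighv7-1 led, followed by Igkv5-43 with 32.2% and Igkv5-45 with 23.2%, and these 3 segments held 93.3% of the counts. In R249C/R249C replicate 2 the first 3 held 90.2%, with Iglv1 in front, Igkv12-46 at 29.2% and Ighv3-6 at 6.22%. R249C/R249C replicate 3 was more even: Igkv3-1 led, Ighv1-55 followed with 15.1% and Ighv1-72 with 10.1%, and the first 3 held 43.1%.

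The leading segments of WT/R249C were Ighv1-78, Igkv5-45, Igkv10-96, Ighv1-25 and Igkv12-44 in replicates 1 to 5. Ighv1-25, the leader of replicate 4, is annotated as a pseudogene. Second were Ighv1-77 with 9.75%, Ighv8-12 with 19.4%, Igkv9-124 with 18.3%, Ighv1-78 with 8.06% and Ighv9-3 with 19.02%, in the same order of replicates. Ighv1-78 was thus first or second in replicates 1 and 4.

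Iglv1 led WT/WT replicates 2 and 3, where the next segments were Ighv1-5 with 5.69% and Igkv5-45 with 6.76%. WT/WT replicate 1 was led by Igkv6-20, followed by Igkv12-44 with 10.1% and Igkv6-23 with 5.85%. The first 3 segments held 27.6%, 63.0% and 41.5% of the counts in WT/WT replicates 1 to 3.

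**Figure D3:**
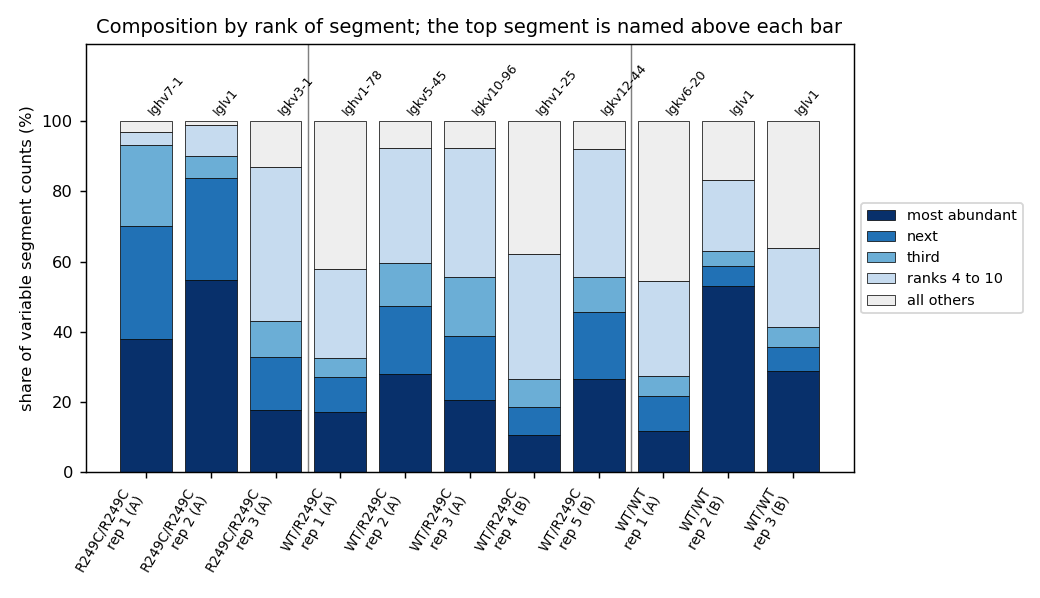
Share of all variable segment counts, in percent, held in each library by the most abundant segment, the next, the third, ranks 4 to 10 and all others, stacked from the bottom, with the name of the most abundant segment above each bar. The first 3 segments reach 93.3% in R249C/R249C replicate 1 and 26.5% in WT/R249C replicate 4.

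The evenness of the segments, as the inverse Simpson index (the number of equally abundant segments that would give the same evenness), was 3.32, 2.55 and 10.2 in R249C/R249C, 16.9, 6.44, 7.33, 20.2 and 7.22 in WT/R249C, and 22.8, 3.40 and 9.68 in WT/WT. The ranges overlapped. It took 3, 3 and 12 segments to hold 90% of the counts in R249C/R249C, 28, 8, 9, 25 and 10 in WT/R249C, and 38, 15 and 35 in WT/WT.

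Segments were shared by few libraries. Of the 196 members, 33 were seen in 1 library, 1 (Iglv1) in all 11, and 97 in at least 1 R249C/R249C library and 124 in at least 1 WT/R249C library, against 182 in WT/WT. Mutant libraries alone showed 14, and WT/WT libraries alone 43. In 160 segments a single library held over 50% of the CPM summed over libraries, and in 64 over 90%. The highest library was a R249C/R249C library for 26 segments, a WT/R249C library for 29 and a WT/WT library for 141. The matching shares of all genes were not computed for these counts by genotype. Members were chosen on summed counts, most of which came from WT/WT libraries, so such counts lean towards WT/WT. Ighv2-9-1, chosen as an example after its values were seen, was at 19.5 CPM in R249C/R249C replicate 2 and at 0 in the other 10 libraries.

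Pairs of libraries had little in common in their profiles. Over the 55 pairs, Pearson's correlation of log2(CPM + 1) across the 196 segments had a median of 0.16 and ran from -0.01 to 0.46, and the lists of 10 most abundant segments shared a median of 2 and at most 5. The 3 pairs within WT/WT were at 0.37 to 0.38, the 3 within R249C/R249C at -0.01 to 0.17 and the 10 within WT/R249C at 0.03 to 0.38. These are descriptions across segments, which are not independent, and libraries of the same batch share their processing.

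**Figure D4:**
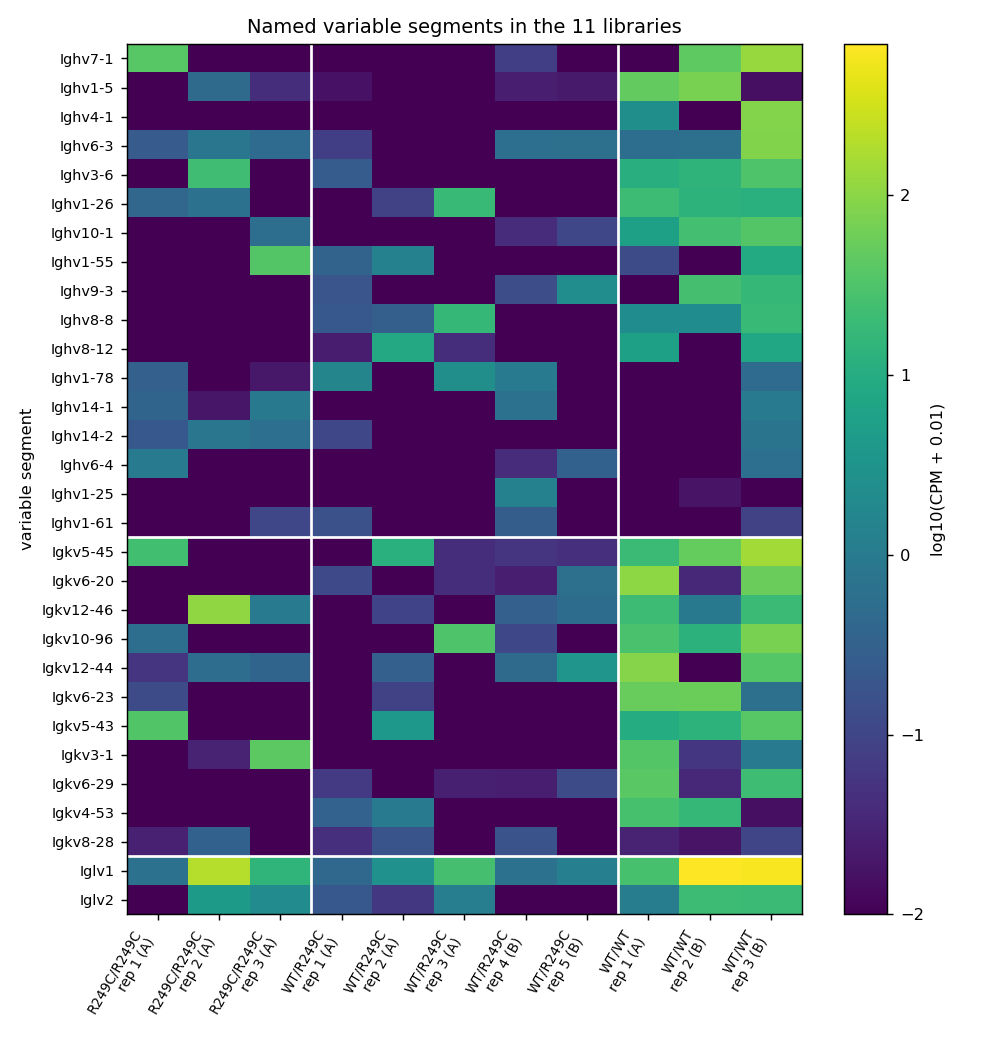
Level of the 30 named segments as log10(CPM + 0.01), heavy segments on top, then kappa and lambda, with 1 column per library and white lines between genotypes and chains. High levels in the mutant libraries are scattered, each in 1 or a few libraries, while Iglv1 is above the floor in all 11.

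Iglv1, a lambda variable segment, had the highest mean level of the 196. It was at 0.667, 201 and 14.5 CPM in R249C/R249C, 0.401, 2.84, 26.4, 0.665 and 1.23 across WT/R249C, and 27.1, 691 and 620 in WT/WT. All 5 WT/R249C libraries were below all WT/WT libraries, but R249C/R249C overlapped WT/WT. The constant gene Iglc1 was high where Iglv1 was highest, at 242 CPM in R249C/R249C replicate 2 and 783 and 711 in WT/WT replicates 2 and 3, and at 0.205 to 4.61 in the other 8. The joining segment Iglj1 was at 21.2, 68.7 and 60.8 CPM in the same 3 libraries and at most 0.433 elsewhere. The counts of its near copy Iglv2 per count of Iglv1 were 0.0214 in R249C/R249C replicate 2, against 0.0305 and 0.0315 in WT/WT replicates 2 and 3. In the other libraries with 10 or more counts of both, it was 0.150 in R249C/R249C replicate 3, 0.509 and 0.0445 in WT/R249C replicates 1 and 3, and 0.0419 in WT/WT replicate 1.

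Ighv7-1 was at 39.0, 0 and 0 CPM in R249C/R249C, at 0 in WT/R249C apart from 0.0696 in replicate 4, and at 0, 43.5 and 121.9 in WT/WT. Igkv5-43 was at 33.1, 0 and 0 CPM in R249C/R249C, at 0 in WT/R249C apart from 3.78 in replicate 2, and at 10.04, 13.7 and 39.0 in WT/WT. Igkv5-45 was at 23.9, 0 and 0 CPM in R249C/R249C, 0, 11.9, 0.0330, 0.0464 and 0.0361 across WT/R249C, and 19.6, 48.9 and 144 in WT/WT. Both members of the pair were thus high in the same libraries, in which reads may have been shared between them. The ratio of Igkv5-43 to Igkv5-45 was 1.39 in R249C/R249C replicate 1 and 0.318 in WT/R249C replicate 2, against 0.513, 0.279 and 0.270 in WT/WT.

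Igkv12-46 was at 0, 108 and 0.990 CPM in R249C/R249C, at most 0.493 in WT/R249C, and at 21.1, 0.891 and 20.1 in WT/WT. Igkv3-1 was at 0, 0.0193 and 41.3 CPM in R249C/R249C, at 0 in all 5 WT/R249C libraries, and at 34.3, 0.0486 and 0.938 in WT/WT. Igkv10-96 was at 0.552, 0 and 0 CPM in R249C/R249C, 32.03 in WT/R249C replicate 3 and at most 0.101 in the other WT/R249C libraries, and 28.6, 12.8 and 72.3 in WT/WT. These kappa segments were high in 1 mutant library each. The heavy segments Ighv3-6 (22.9 CPM in R249C/R249C replicate 2), Ighv1-55 (35.0 CPM in R249C/R249C replicate 3), Ighv1-26 (18.5 CPM) and Ighv8-8 (16.5 CPM, both in WT/R249C replicate 3), and Ighv8-12 (8.19 CPM in WT/R249C replicate 2) were likewise at 1.33 CPM or less in every other mutant library. In WT/WT, Ighv3-6 was at 11.3 to 31.5 CPM, Ighv1-55 at 0 to 9.27, Ighv1-26 at 11.96 to 21.1, Ighv8-8 at 2.22 to 18.5 and Ighv8-12 at 0 to 7.86.

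The Igkv6 family, picked out after its values were seen, was near 0 in all 8 mutant libraries. Its 9 members summed to 0.489, 0.0580 and 0.152 CPM in R249C/R249C, 0.324, 0.186, 0.0495, 0.186 and 0.710 across WT/R249C, and 245, 105 and 107 in WT/WT. Of the other families with a high WT/WT mean, Igkv5 reached 57.1 CPM, Igkv12 108 and Ighv7 39.0 in a R249C/R249C library, and Igkv10 44.5 in a WT/R249C library, while Igkv4 stayed at or under 6.32 and Ighv5 at or under 2.74 in all mutant libraries. Families of lower WT/WT mean were as low as Igkv6, among them Ighv4 (0 CPM) and Ighv10 (at most 0.544 CPM). Igkv6 held at most 0.824% of the kappa counts in R249C/R249C and 0.0620% to 29.7% in WT/R249C, the upper end in replicate 1 where kappa counts were few. In WT/WT it held 38.5%, 39.1% and 12.9%.

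Igkv6-20 was at 0 in all 3 R249C/R249C libraries, 0.105, 0, 0.0330, 0.0155 and 0.590 CPM in WT/R249C, and 105, 0.0243 and 55.04 in WT/WT. Its near copy Igkv6-29 was at 0 in R249C/R249C, at most 0.120 CPM in WT/R249C, and at 40.4, 0.0243 and 21.97 in WT/WT, a ratio to Igkv6-20 of 0.386 and 0.399 in WT/WT replicates 1 and 3. Igkv6-23 was at 0.125, 0 and 0 CPM in R249C/R249C, at 0 in WT/R249C apart from 0.0759 in replicate 2, and at 52.5, 56.1 and 0.592 in WT/WT. So the family was carried by Igkv6-20 and Igkv6-23 in WT/WT replicate 1, by Igkv6-23 and Igkv6-15 (41.7 CPM) in replicate 2 and by Igkv6-20 in replicate 3. Against a floor of 3 counts over the R249C/R249C libraries, Igkv6-20 was at least 5264-fold and Igkv6-29 at least 2065-fold lower than in WT/WT, bounds that cover counting error only.

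The same bound gave Ighv4-1 as at least 4029-fold lower in R249C/R249C and at least 6985-fold lower in WT/R249C, but it was seen in 2 WT/WT libraries only, at 2.55 and 87.1 CPM. Ighv6-3 was at 0.240, 0.783 and 0.479 CPM in R249C/R249C, 0.0703, 0, 0, 0.573 and 0.590 across WT/R249C, and 0.549, 0.608 and 84.8 in WT/WT. Its WT/WT mean of 28.6 CPM rested on replicate 3, and the other libraries overlapped. Ighv1-5 was at 0, 0.454 and 0.0326 CPM in R249C/R249C, at most 0.0155 in WT/R249C, and at 48.2, 74.2 and 0.00548 in WT/WT. Ighv10-1 was at 0, 0 and 0.544 CPM in R249C/R249C, at most 0.0962 in WT/R249C, and at 5.51, 24.4 and 34.8 in WT/WT, with no overlap. Of these heavy segments, only Ighv10-1 was thus high in all 3 WT/WT libraries. Igkv12-44 was at 0.0445, 0.532 and 0.348 CPM in R249C/R249C, 0 to 3.26 in WT/R249C, and 90.7, 0 and 36.2 in WT/WT. Igkv4-53 was at 0 in R249C/R249C, 0 to 0.987 CPM in WT/R249C, and 26.9, 16.97 and 0.00548 in WT/WT. Ighv9-3 was at 0 in R249C/R249C, 0 to 2.33 CPM in WT/R249C, and 0, 25.6 and 16.7 in WT/WT. Each of these 3 was near or at 0 in 1 WT/WT library. The WT/R249C range overlapped that of WT/WT for all 3, and the R249C/R249C range for Igkv12-44 and Ighv9-3 but not for Igkv4-53.

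The mean was higher than in WT/WT for 30 of 196 segments in R249C/R249C, for 24 in WT/R249C and for 46 in either. Among them in R249C/R249C were Igkv12-46, Igkv3-1 and Ighv1-55, each through the single high library given above, and Ighv2-9-1. Further examples were low in every library. Ighv1-78 was at 0.294, 0 and 0.0109 CPM in R249C/R249C, 1.58, 0, 2.44, 1.02 and 0 across WT/R249C, and 0, 0 and 0.472 in WT/WT. Ighv14-1 was at 0.347, 0.00966 and 0.892 CPM in R249C/R249C, at 0 in WT/R249C apart from 0.642 in replicate 4, and at 0, 0 and 0.949 in WT/WT. Ighv14-2 was at 0.205, 0.773 and 0.576 CPM in R249C/R249C, at 0 in WT/R249C apart from 0.0985 in replicate 1, and at 0, 0 and 0.713 in WT/WT. Ighv6-4, Ighv1-61 and Igkv8-28 were at 0.996 CPM or less in every library. The pseudogene Ighv1-25 was likewise low, and was at 1.35 CPM in WT/R249C replicate 4, 0.00810 in WT/WT replicate 2 and 0 elsewhere. For these low segments the ranges of each mutant genotype overlapped that of WT/WT.

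Libraries with the variant on both Aire copies were tested against those without it. In the edgeR quasi-likelihood fit of all 11 libraries with a batch term, 0 of 26980 genes passed at an adjusted p of 0.05 (0% called). The number with an unadjusted p under 0.05 was 865, and with limma voom 0 genes passed. Of the 196 segments 83 passed the filter on low counts and were tested, and 113 were not. Segments that passed it only because WT/WT was high had to differ, so their counts support nothing. Of the 83, 0 passed with edgeR, 27 had an unadjusted p under 0.05, and all 27 were lower in R249C/R249C. Those of smallest p were Igkv6-29 (edgeR log2 fold change -14.20, SE 3.59), Igkv6-23 (-11.15, SE 3.07) and Igkv6-20 (-15.35, SE 4.31), each with an edgeR adjusted p of 1. In the other direction Ighv14-1 (8.31, SE 3.82), Ighv6-4 (7.92, SE 4.10) and Ighv7-1 (11.35, SE 6.95) also had an adjusted p of 1. The fitted sign of Ighv7-1 is opposite to its group means, 13.01 CPM in R249C/R249C and 55.1 in WT/WT. DESeq2 gave 23.79 and limma voom -1.01. Fitted edgeR changes of segments at 0 in several libraries depend on the prior count and are no bounds. That of Ighv7-1 turned to -2.36 without R249C/R249C replicate 1 and was also negative with no batch term. The segment was at 0 in the single WT/WT library of batch A. The cause of the sign was not tested.

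DESeq2 called 408 genes (1.51% called), 252 of them lower (0.934% called). Of the 83 segments 8 were called, all lower: Igkv6-14, Igkv6-20, Igkv6-29, Igkv8-21, Iglv2, Ighv1-62-2, Ighv1-71 and Ighv1-81. DESeq2 gave no adjusted p for 38 of the 83. The limit given for segments that passed the filter only through WT/WT holds for these calls too. The variable exons of Ighv1-62-2 and Ighv1-71 are identical, so these calls are not independent. Counted without a model, 32 of 196 segments (16.3%) were lower in every R249C/R249C library than in every WT/WT library, against 3.97% of the 35939 genes with 10 or more counts, and 0 were higher in every library, against 2.66%. The mean was lower in R249C/R249C for 156 of 196 segments (79.6%), against 52.2% of genes. The count minimum for members likewise favours segments high in WT/WT.

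Libraries with a single variant copy were tested against the same WT/WT libraries. edgeR again called 0 of 26980 genes (0% called). The number with an unadjusted p under 0.05 was 940, and with limma voom 0 genes passed. Of the 83 segments tested 0 passed with edgeR and 33 had an unadjusted p under 0.05, all lower in WT/R249C. Here too, segments that passed the filter only because WT/WT was high had to differ, so their counts support nothing. Igkv6-23 (edgeR log2 fold change -12.16, SE 2.49), Ighv10-1 (-9.91, SE 2.08) and Ighv1-5 (-12.23, SE 2.60) had the smallest, each with an edgeR adjusted p of 1. In the other direction Ighv1-61 (2.70, SE 2.95), Ighv1-78 (2.75, SE 3.89) and Igkv8-28 (1.17, SE 2.19) had intervals that included 0.

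DESeq2 called 276 genes (1.02% called), 120 of them lower (0.445% called), and 13 of the 83 segments, all lower, with no adjusted p for 40. The same limit of the filter holds for these 13 segments. They were Ighv1-5, Ighv6-3, Ighv6-5, Ighv10-1, Igkv4-54, Igkv4-73, Igkv6-13, Igkv6-14, Igkv6-15, Igkv6-20, Igkv6-23, Igkv6-29 and Iglv2, of which 4 (Igkv6-14, Igkv6-20, Igkv6-29 and Iglv2) were also called in the other comparison with the same WT/WT libraries. In every library lower were 24 of 196 segments (12.2%), against 1.5% of genes, and 0 were higher in every library, against 0.888%. The mean was lower in WT/R249C for 170 of 196 segments (86.7%), against 45.5% of genes. These counts too rest on members whose count minimum favours segments high in WT/WT. Below every WT/WT library in all 8 mutant libraries were 13 segments (6.63%), against 0.573% of genes, and 0 were above every WT/WT library, against 0.253%. Of the 13, 6 were Igkv6 segments: Igkv6-13, Igkv6-14, Igkv6-15, Igkv6-17, Igkv6-23 and Igkv6-25. Leaving out a library can only keep or raise these counts, and the matching shares of all genes were not computed. The 13 were 25 without WT/R249C replicate 3, 28 without WT/WT replicate 1 and 50 without WT/WT replicate 2. The 24 of WT/R249C were 41, 40 and 69 without the same libraries, and the 32 of R249C/R249C were 76 without WT/WT replicate 2.

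R249C/R249C was compared with WT/R249C within batch A, 3 libraries each. The summed level was 3.39-fold higher in R249C/R249C by the means, 234 ± 133 against 69.0 ± 76.9 CPM, and the ranges overlapped. edgeR called 0 of 23695 genes (0% called). The number with an unadjusted p under 0.05 was 256, 0 genes passed with limma voom, and 31 passed with DESeq2 (0.131% called, 0.0886% lower). Only 12 of the 196 segments passed the filter on low counts, and 0 were called by edgeR or DESeq2. Ighv8-8, at 0 in R249C/R249C and 0.204, 0.278 and 16.5 CPM in WT/R249C replicates 1 to 3, was the 1 segment with an unadjusted p under 0.05 (edgeR log2 fold change -12.08, SE 3.39, adjusted p 1.00). In every library lower in R249C/R249C were 5 of 196 (2.55%), against 4.82% of genes, and higher 3 (1.53%), against 2.45%, counts near the background. The mean was lower in R249C/R249C for 65 of 196 segments (33.2%), against 51.7% of genes. Segments at 0 in all of these libraries count as not lower, among them the 43 seen only in WT/WT. The share thus does not give how many were higher.

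Kappa segments were set beside Igkc, the kappa constant gene that ends each kappa transcript. Igkc was at 166, 246 and 341 CPM in R249C/R249C, 81.3, 72.5, 283, 69.2 and 90.03 across WT/R249C, and 1610, 734 and 1863 in WT/WT. The ratio of summed kappa segment CPM to Igkc CPM, which is not scaled for gene length and is compared only between libraries, was 0.358, 0.472 and 0.331 in R249C/R249C and 0.396, 0.365 and 0.449 in WT/WT. In WT/R249C it was 0.386 and 0.282 in replicates 2 and 3, and 0.0134, 0.0343 and 0.0659 in replicates 1, 4 and 5. The last 3 libraries thus had Igkc at levels like that of replicate 2 but few kappa variable segment counts.

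**Figure D5:**
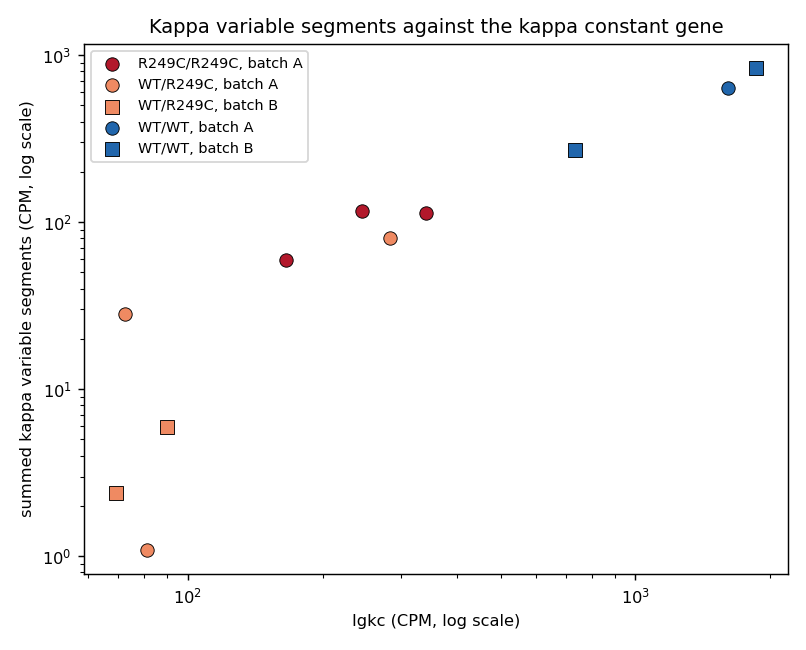
Summed CPM of kappa variable segments against Igkc CPM, both on log scales, 1 point per library, coloured by genotype, circles for batch A and squares for batch B. WT/R249C replicates 1, 4 and 5 lie below the other 8 libraries, at 1.09 to 5.93 CPM of kappa segments with 69.2 to 90.03 CPM of Igkc.

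The same 3 WT/R249C libraries differed in other ways. Igha, the constant gene of IgA, was at 0, 2.47 and 3.37 CPM in replicates 1, 4 and 5, against 62.6 and 116 in replicates 2 and 3. Jchain, the protein that links IgA and IgM units, was at 2.04, 3.78 and 0.325 CPM there, against 27.9 and 155. Heavy segments made up 81.3% and 76.0% of the variable segment counts of replicates 1 and 4, which were led by Ighv1-78, Ighv1-77 and Ighv1-75 and by Ighv1-25, Ighv1-78 and Ighv1-82. Pseudogenes held 6.66%, 14.3% and 13.6% of the counts in replicates 1, 4 and 5, and 0.0656% to 3.02% in all other libraries. Replicates 4 and 5 are those with contradicting labels and make up all of WT/R249C in batch B, so batch and label cannot be told apart for them. Replicate 1 is in batch A and its labels agree.

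Constant genes and joining segments were also highest in WT/WT. Igha was at 147, 185 and 262 CPM in R249C/R249C and 816, 1064 and 2242 in WT/WT, and Jchain at 58.7, 177 and 179 in R249C/R249C and 621 to 1086 in WT/WT. Summed over 14 genes, the joining segments were at 7.42, 28.6 and 19.9 CPM in R249C/R249C, 2.43 to 8.80 in WT/R249C, and 49.9, 102 and 139 in WT/WT, with no overlap of WT/WT with the mutants. Ighm, the constant gene of IgM, differed less, at 11.9 to 17.2 CPM in R249C/R249C, 4.34 to 20.5 in WT/R249C and 17.3 to 29.0 in WT/WT. Of the 12 constant genes 10 had a lower mean in R249C/R249C and 12 in WT/R249C than in WT/WT. Ighg1 averaged 40.3 CPM in R249C/R249C (114 in replicate 3), against 21.6 in WT/WT. Ighe averaged 2.15 CPM in R249C/R249C (6.45 in replicate 2), against 0.263 in WT/WT. Ighg3 reached 63.8 CPM in WT/R249C replicate 3, above its WT/WT maximum of 39.9. edgeR called 0 of the constant genes in either comparison, and DESeq2 called Igkc and Ighg2b lower in both. DESeq2 gave no p for Igha and Iglc1 in these comparisons, so they could not be called.

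Markers of the cells that make antibodies did not all follow the segments. Mzb1, a chaperone of plasma and B cells, was at 0.818, 1.48 and 3.24 CPM in R249C/R249C, 0 in WT/R249C apart from 1.29 and 13.0 in replicates 2 and 3, and 11.3, 19.9 and 39.5 in WT/WT. Cd79a, part of the B cell receptor, was at 0 to 4.99 CPM in R249C/R249C, 0 to 3.16 in WT/R249C and 6.98 to 10.1 in WT/WT. Ms4a1 (CD20) was at 0 in every R249C/R249C library, 0 to 1.19 CPM in WT/R249C and 0.636 to 5.18 in WT/WT. Other markers had a higher mean than in WT/WT in either or both mutant genotypes. Pou2af1, a B cell transcriptional coactivator, averaged 8.27 CPM in R249C/R249C, 12.3 CPM in WT/R249C and 4.796 CPM in WT/WT. Derl3, of the endoplasmic reticulum, averaged 7.36 CPM in R249C/R249C, 7.02 CPM in WT/R249C (21.5 in replicate 5) and 3.25 CPM in WT/WT. Prdm1, a plasma cell transcription factor, averaged 2.31 CPM in R249C/R249C, against 0.508 in WT/WT, and Irf4, another, 18.5 CPM in WT/R249C, against 10.4 in WT/WT. Of the 12 B cell markers 9 had a lower mean in R249C/R249C and 8 in WT/R249C than in WT/WT, and of the 12 plasma cell markers 8 in each. The 12 B cell markers summed to 108 to 254 CPM in R249C/R249C, 141 to 397 in WT/R249C and 214 to 302 in WT/WT, ranges that overlapped. In R249C/R249C, 2 of the 12 (Ms4a1 and Cd22) were at 0, against 0 in WT/R249C and 1 (Bank1) in WT/WT. Cd22 was seen in WT/WT only in replicate 3, at 0.483 CPM. Fcer2a, Ebf1 and Spib had the highest means of the list in each genotype and made up most of its sum. The 12 plasma cell markers summed to 769 to 832 CPM in R249C/R249C, 611 to 930 in WT/R249C and 1359 to 1927 in WT/WT, and 0 were at 0 in a whole genotype. Without Jchain, a sum added after seeing the data, they were at 591 to 724 CPM in R249C/R249C, 609 to 863 in WT/R249C and 738 to 956 in WT/WT, so WT/R249C then overlapped WT/WT. The sum also includes genes such as Xbp1 and Sdc1 that epithelial cells express.

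For the other lists edgeR called 0 genes in any comparison. DESeq2 called Ms4a1 lower in R249C/R249C of the 12 B cell markers, 0 of the 12 plasma cell markers, 0 of the 6 precursor B cell genes, 0 of the 10 genes of V(D)J recombination and 0 of the 5 of class switching and hypermutation. Against WT/WT, DESeq2 gave no p for the plasma cell markers Jchain and Mzb1 or for the joining segment Iglj1, so these could not be called. Of the joining segments it called Igkj5 lower in R249C/R249C, and Igkj5, Igkj2 and Ighj4 lower in WT/R249C. Of the 10 T cell genes it called Ptcra lower in R249C/R249C, and Ptcra and Cd3g lower in WT/R249C. The 10 T cell genes summed to 134 to 181 CPM in R249C/R249C, 98.03 to 176 in WT/R249C and 192 to 269 in WT/WT, so this leukocyte list was also higher in every WT/WT library, and 0 of its genes were at 0 in a whole genotype. Its part in the segment levels was not tested. T cell receptor variable segments, the counterpart in T cells, summed to 1.24 to 13.1 CPM in R249C/R249C, 4.91 to 14.5 in WT/R249C and 8.97 to 15.4 in WT/WT, and of 170, 32 were tested against WT/WT and 0 were called by DESeq2. Rag1, which starts V(D)J recombination, was at 2.58 to 17.2 CPM in R249C/R249C, 5.98 to 37.1 in WT/R249C and 9.93 to 18.7 in WT/WT.

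Aire, the gene that carries the variant, was at 318 to 858 CPM in R249C/R249C, 174 to 769 in WT/R249C and 312 to 768 in WT/WT. A missense variant cannot be checked by a gene's level. The labelled cell type was checked on its markers. Epcam was at 355 to 466 CPM in R249C/R249C, 443 to 521 in WT/R249C and 367 to 450 in WT/WT, with Krt8, Krt5 and Foxn1 present in every library. Ptprc, which codes for CD45, was detected in every library, at 6.95 to 17.6 CPM in R249C/R249C, 0.217 to 18.8 in WT/R249C and 13.6 to 26.2 in WT/WT. Which cells carried these transcripts, and the part that leukocytes left after bead depletion had in them, was not tested. Total counts per library ran from 60560348 to 182319976.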

How the data were processed

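RNA-seq was made from EpCAM-sorted thymic cells in 11 libraries. The authors deposited raw counts per Ensembl gene, in 1 table of 56691 genes. FastQC, HISAT2, StringTie and the mouse build mm39 are named, per the submitters' processing notes, without versions, and the column names of 7 libraries carry the word trimmed. How StringTie output became counts, and whether strand was used, the sources used here do not say. Symbols were matched for 52073 genes from GENCODE M21, whose build is GRCm38.

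CPM is the count scaled to the library total. All genes were fitted with edgeR 4.0.16 (quasi-likelihood, TMM, filterByExpr, two-sided, Benjamini-Hochberg over all genes tested, threshold 0.05) in R 4.3.3, with genotype by title and batch as terms. R249C/R249C was compared with WT/R249C within batch A. DESeq2 1.42.0 and limma 3.58.1 (voom) were alternatives. The edgeR fits were also run on simulated data with known changes, whose outcome is not given here. Identities and sums were computed in Python 3.11.15, and exact binomial intervals with scipy 1.17.1. The libraries held 60560348 to 182319976 counts.

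Segments named are the top heavy, kappa and lambda segment of each library, those of highest mean CPM and, in each comparison, the 3 of smallest p in each direction. The segments and gene lists were chosen with earlier results of these data known. Titles call the libraries biological replicates, and p-values measure the spread between them. Replicate numbers are no pairing: same-numbered libraries of different genotypes were no more alike than others.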

Additional observations from a re-analysis of the deposited data

Results flagged for a closer look

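In WT/R249C, the only genotype with enough libraries for a gap test (the gap of the extreme library to the next, as a share of the range), 26 of 49 measures tested had a single library apart from the other 4. Chance gives about 1 in 20. Many of the segments were at or near 0 in the other 4 libraries, where any signal passes such a test.

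Replicate 3 stood above the others in the summed level of variable segments (156 CPM, the next being 42.2), of heavy segments (48.3 CPM) and of lambda segments (27.5 CPM). It also did so in Iglv1 (26.4 CPM), Iglv2 (1.17 CPM), Igkv10-96 (32.03 CPM), Ighv1-26 (18.5 CPM) and Ighv8-8 (16.5 CPM). Outside the segments, it was apart in Igkc (283 CPM), Jchain (155 CPM) and Mzb1 (13.0 CPM). In this library Ptprc, which codes for CD45, was at 0.248 CPM, while its summed B cell markers, at 397 CPM, were the highest of the 11 libraries, with Fcer2a at 178, Ebf1 at 114 and Cd79b at 43.2 CPM. The part of leukocytes in these levels was not tested.

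Replicate 2 stood apart in Igkv5-45 (11.9 CPM), Igkv5-43 (3.78 CPM), Ighv8-12 (8.19 CPM), Ighv1-55 (1.33 CPM) and Igkv6-23 (0.0759 CPM). Replicate 5 stood apart in Igkv12-44 (3.26 CPM), Ighv9-3 (2.33 CPM), Igkv6-20 (0.590 CPM) and Ighv6-4 (0.313 CPM). Replicate 4 did so in Ighv1-25 (1.35 CPM), Ighv14-1 (0.642 CPM), Ighv7-1 (0.0696 CPM) and Iglc1 (4.61 CPM), and replicate 1 in Ighv3-6 (0.246 CPM) and Ighv14-2 (0.0985 CPM).

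The effect of WT/R249C against WT/WT was also compared between the batches with an interaction term. Among 25519 genes 0 passed with edgeR, and 998 had an unadjusted p under 0.05. Of 63 segments in that fit 0 were called and 2 had an unadjusted p under 0.05, the smallest edgeR adjusted p of a segment being 0.983.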

How the results depend on the processing

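Of 509 alternative values of 36 results, 475 were labelled the same, 19 moved, 10 reversed and 5 stronger. For a fold change, the same means an unchanged sign and side of the threshold. For a count it means a change within a fixed factor, and for a mean a shift smaller than the SD between libraries. Where that SD is wide, a mean passes easily. DESeq2 called 408, 276 and 31 genes in the comparisons of R249C/R249C with WT/WT, of WT/R249C with WT/WT and of R249C/R249C with WT/R249C, and 8 segments in the first and 13 in the second of these. edgeR called 0 in each, also under every normalization, filter, grouping and left-out library run, and the cause was not tested. Thinned to the smallest variable segment total, the mean number of segments seen was 27.3 in R249C/R249C and 64.6 in WT/WT, and at 10 counts it was 24.2 in WT/R249C. Within heavy segments alone the mean top share was 58.2% in R249C/R249C, 38.3% in WT/R249C and 20.7% in WT/WT, and within kappa alone it was 61.7% in R249C/R249C, 37.3% in WT/R249C and 18.2% in WT/WT. In R249C/R249C against WT/WT, the log2 fold change of Ighv7-1 was -1.01 with limma voom, -9.08 with the contested libraries as R249C/R249C and -1.95 with no batch term. Leaving out 1 library at a time gave -2.36 to 11.99 for it and -0.38 to 12.89 for Ighv6-4. In WT/R249C against WT/WT, Igkv8-28 ran from -0.94 to 2.36 over left-out libraries. In R249C/R249C against WT/R249C, Iglv1 ran from -0.28 to 5.45 and Ighv1-26 from -4.81 to 3.16, and Ighv1-26 was 2.44 with limma voom and 2.65 with the replicate block. The number of segments below every WT/WT library ran, over left-out libraries, from 35 to 76 in R249C/R249C, 24 to 69 in WT/R249C and 13 to 50 in all mutant libraries. These left-out counts, which can only stay or rise, and the thinning were added after seeing the data. With the contested libraries left out they were 27 in WT/R249C and 15 in all mutant libraries. The replicate block called 0 genes in all 3 comparisons. Same-numbered libraries of different genotypes had correlated deviations of -0.131 to 0.132 over 9 pairs, and other pairs -0.0892 to 0.214. In the libraries of fewest variable segment counts, depth limits which segments can be seen.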
